A study of Mus musculus with 16 samples.

Results

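Laminins are the trimeric glycoproteins of basement membranes, and integrins are the paired alpha and beta receptors through which cells hold on to them and to other matrix. Their genes were described chain by chain in the mouse colon. All protein-coding genes whose symbol names a laminin alpha, beta or gamma chain or an integrin alpha or beta chain were taken, which gave 37 of the 56748 genes counted. They comprise 11 laminin, 18 integrin alpha and 8 integrin beta genes.

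RNA came from LMMP, the longitudinal muscle stripped from the colon wall with the myenteric plexus attached. The HSCR mice were homozygous for a disrupted endothelin B receptor gene (Ednrb -/-, allele Ednrb tm1Ywa), which leaves the distal colon without enteric ganglia, and WT mice were their Ednrb +/+ littermates. All were on a hybrid C57BL6/J-129Sv background, of both sexes and a few weeks old. The disruption is carried in every tissue. Each of the 4 groups, WT proximal, HSCR proximal, WT distal and HSCR distal colon, held 4 libraries, 16 in all. The proximal segment of HSCR mice was the ganglionated, distended part above the aganglionic zone. Whether both segments of a number came from 1 mouse is not stated, so p-values measure the spread between these libraries. The 8 libraries titled distal carry a proximal tissue entry in their labels and were taken as distal.

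A laminin trimer joins 1 alpha, 1 beta and 1 gamma chain, and the alpha chain largely sets which receptors bind it. Epithelia anchor on a trimer that holds the Lama3 and Lamb3 products through the Itga6 and Itgb4 pair, muscle sits in sheaths rich in the Lama2, Lamb1, Lamb2 and Lamc1 products and binds them through Itgb1 with alpha partners such as Itga7, and leukocytes carry the Itgb2 and Itgb7 families. In the gut wall, laminin and the integrins of neural crest cells are known for their part in the colonisation of the bowel by the enteric nervous system. The genes were therefore placed in 5 groups by the tissue each chain is best known from. These held 7 epithelial, 15 muscle and mesenchyme, 3 nerve and glia, 10 leukocyte and platelet, and 2 other basement membrane chains.

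Totals of 21384372 to 45831881 reads per library were counted on genes. Mitochondrial genes took 49.8% of WT proximal library 1 and between 4.32% and 34.6% of the other 15. Ednrb was counted in every library, at 64.5, 33.8, 67.1 and 53.0 CPM (read counts scaled to a common library size, with TMM factors) in WT proximal libraries 1 to 4 and at 7.84, 11.9, 37.4 and 35.3 CPM in HSCR proximal libraries 1 to 4. Distal levels were 11.8, 15.7, 29.5 and 43.0 CPM in WT and 94.7, 5.43, 6.10 and 9.48 CPM in HSCR. The genotype difference was -1.26 (log2, SE, the standard error, 0.52) in the proximal colon and 0.27 (0.95) in the distal colon, and neither passed the quasi-likelihood test of edgeR (adjusted p = 0.747 and 1.00). In the HSCR groups, some libraries went against their segment labels by the hindgut homeobox gene Hoxd13. The library labelled HSCR proximal 1 held 125 CPM, within reach of the WT distal libraries (117 to 215 CPM). The library labelled HSCR distal 1 held 0.615 CPM and the 94.7 CPM of Ednrb given above. HSCR distal library 4 also went against its label by Hoxd13, at 14.0 CPM, where the WT proximal libraries held 0.861 to 23.9 CPM. The hindgut homeobox genes Hoxd12 and Hoxb13 also went against the label of HSCR distal library 4. Hoxd12 was at 0.731 CPM in it (WT proximal 0.143 to 2.71 CPM, WT distal 10.56 to 19.96 CPM). Hoxb13 was at 0.0457 CPM in it (WT proximal 0 to 1.17 CPM, WT distal 1.35 to 82.6 CPM). Hoxa13 went with the label, at 40.8 CPM, above the WT distal libraries (27.6 to 34.9 CPM). HSCR proximal library 2 went against its label by Hoxb13, at 34.98 CPM, but not by Hoxd13, at 2.35 CPM. HSCR proximal library 2 stood apart in tissue content. The mean log2 CPM of 10 smooth muscle markers was 6.87 in it and 9.72 to 11.4 in the other libraries, and that of 14 epithelial markers was 9.35, the highest of the 16. All 10 smooth muscle markers, such as Myh11 and Actg2, were counted in all libraries. In bulk RNA, fewer cells of a type and less RNA per cell cannot be told apart.

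Per length of transcript, the chains of muscle and mesenchyme made up 89.7% of the summed mean FPKM (the deposited level per kb of gene and unit of depth) of the 37 genes. Itgb1, the common beta partner of the matrix-binding integrins, led with a mean of 364 ± 201 FPKM (SD, n = 16) and held 43.7% of the sum by itself. Itga5, the fibronectin receptor chain, followed with 131 ± 71.6 FPKM, then Lamc1 with 59.2 ± 31.9 FPKM, Lamb2 with 41.0 ± 25.9 FPKM and Itgb5 with 39.4 ± 24.3 FPKM. These 5 were also the highest 5 in each of the 4 groups, with Lamb2 and Itgb5 changing places in the distal colon. Lamc1, Lamb2 and Itgb5 lay within each other's SD. The epithelial chains together held 4.05% of the sum, the leukocyte and platelet chains 2.95%, Lama1 and Lama5 together 2.69% and the nerve and glia chains 0.617%. Only 24 of the 37 genes had a mean above 1 FPKM. Itgad, a leukocyte alpha chain, was lowest, with counts in 1 library only (0.114 CPM in HSCR proximal library 3).

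**Figure D1:**
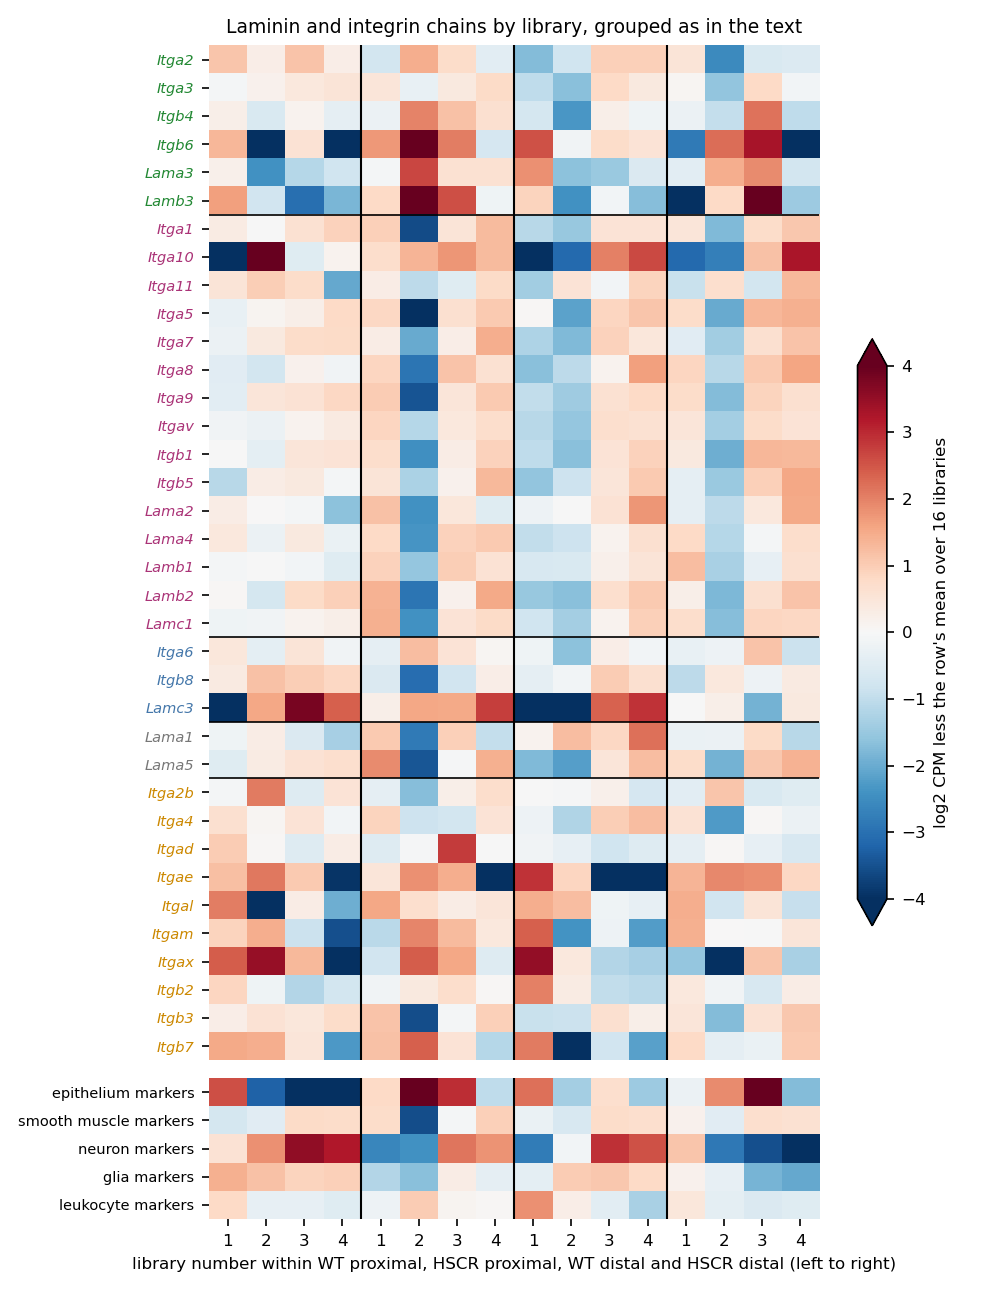
Level of 36 laminin and integrin genes in each of the 16 libraries, as log2 CPM (prior of 0.5 counts) less the mean of the row, with rows coloured by chain group and 5 marker lists below. Most muscle and mesenchyme chains are lowest in HSCR proximal library 2, the library with the lowest smooth muscle and highest epithelial markers, where Lama3, Lamb3 and Itgb6 are at their highest.

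The laminin and integrin genes were compared between genotypes in each labelled segment, to ask whether those of HSCR mice differ from those of WT littermates. The labelled groups were not uniform in nerve content. The mean log2 CPM of 12 neuronal markers was 1.61, 1.81, 6.36 and 6.01 in HSCR proximal libraries 1 to 4. In HSCR distal libraries 1 to 4 it was 5.34, 1.36, 0.71 and -1.06. WT libraries held 4.81, 6.07, 7.77 and 7.42 in the proximal and 1.43, 4.11, 7.15 and 6.78 in the distal colon. None of the 36 genes tested in the proximal colon was called at an adjusted p under 0.05 with a log2 fold change beyond 1 (edgeR's quasi-likelihood test, 0 genes, smallest adjusted p = 0.747). The same call was made for 0% of all 16664 genes tested. Lama3, Lamb3 and Itgb4 (3 genes, where 2.48% of all genes did so) were higher in HSCR at an unadjusted p under 0.05, and Itgb8 (1 gene, where 4.13% did so) was lower. DESeq2 called 0 as well, where it called 1.09% of all genes. The 36 had a median log2 fold change of 0.32 and all genes one of 0.04, with 25 of 36 above 0, where 53.2% of all genes were above 0. Among the 11 laminins, 10 were above 0, with a median of 0.52. Without HSCR proximal library 1 the median of the 36 was 0.04, and without libraries 1 and 2, an alternative chosen after seeing the data, it was 0.46. The likelihood ratio test of edgeR after RUVr with 4 factors, the normalization named in the Methods of the study, called 6 of 36 at the same threshold (Lama3, Lamb3, Itgb6, Itgal and Itga10 higher, Itgb8 lower), where it called 19.2% of all genes. With the looser fold limit of 1.5 that the Methods use, Itgb4 joined them, making 7, and the share of all genes is then at least that 19.2%. Itga10, a collagen receptor chain with 33.5% of its exon bases shared with another gene model on the same strand, stood at -1.18 (SE 1.40) in the quasi-likelihood fit and at 1.87 under RUVr, so its direction turned.

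Distal comparisons gave the same count of calls. None of 35 genes was called (0 by edgeR's quasi-likelihood test, where 0% of 17059 genes were, and 0 by DESeq2, where 0.129% were). At an unadjusted p under 0.05, 0 were higher and 1 was lower (Lama1), where 0.879% and 1.76% of all genes were. Their median log2 fold change was 0.34 (all genes 0.04), and 26 of 35 were above 0, where 53.9% of all genes were. It ranged from 0.10 without WT distal library 2 to 0.52 without WT distal library 3. RUVr called 2 of 35 (Itgae and Lamc3, higher), where it called 8.65% of all genes. The direction of Lamc3 turned from -1.68 (SE 1.69) in the quasi-likelihood fit to 3.80 under RUVr. The difference between the genotype differences of the segments, tested in 1 fit over the 16 libraries, was called for 0 of 36 genes (0% of all), and 0 were higher and 0 lower at an unadjusted p under 0.05 (edgeR, where 0.602% and 0.843% of all genes were, 1.44% together). DESeq2 and RUVr each called 0 of them as well, where they called 0.0322% and 3.86% of all genes. Of the 36 differences 16 were above 0, as were 46.7% over all genes. Both genotype comparisons have libraries of their own and share no control.

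**Figure D2:**
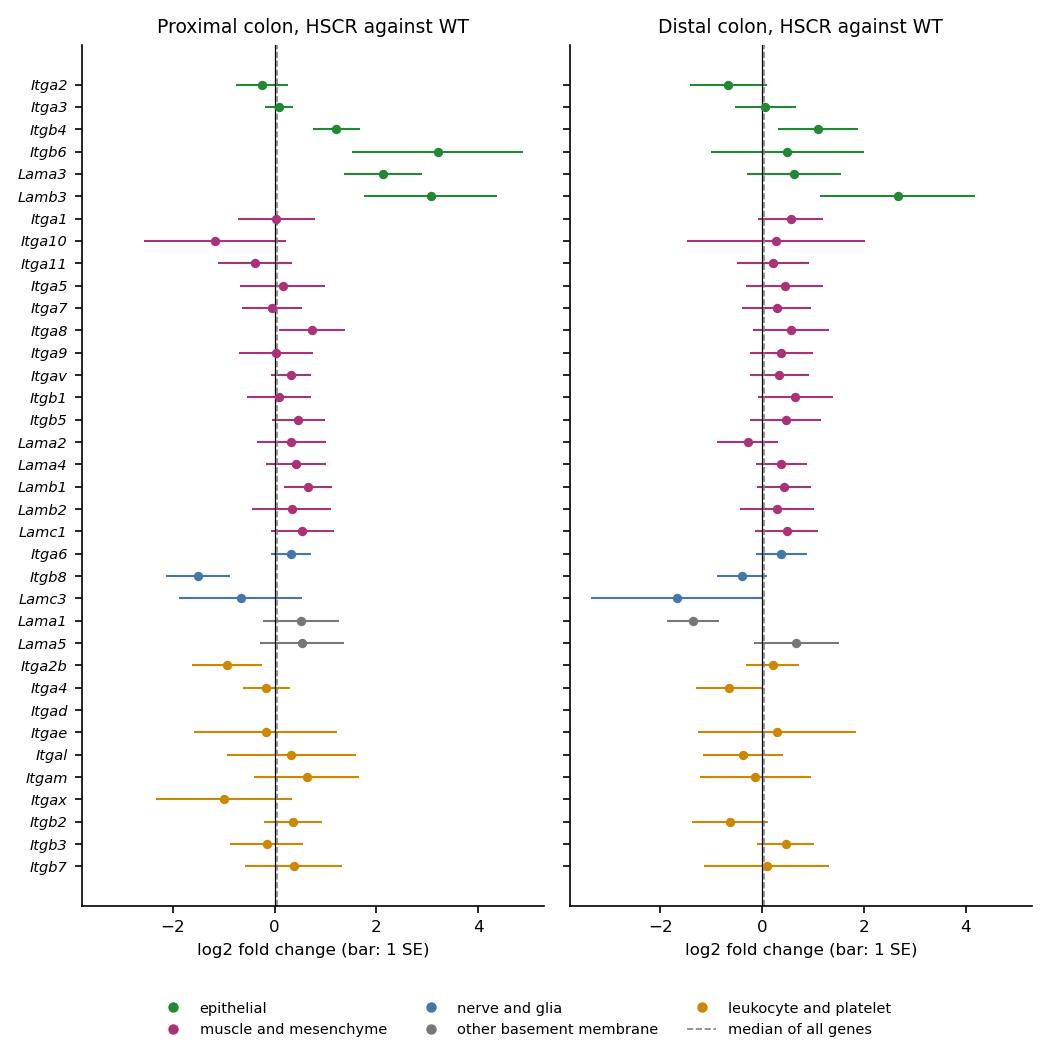
Log2 fold change of HSCR against WT for the chains named on the axis in the proximal and the distal colon, with bars of 1 standard error from edgeR's fit of 4 libraries against 4 and a dashed line at the median of all genes. The widest bar is that of Itgb6 in the proximal and of Itga10 in the distal colon, and no chain passed the adjusted test in either segment.

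The epithelial chains carried the largest differences in the proximal colon. Lama3, the alpha chain of the epithelial anchoring laminin (ENSMUSG00000024421), stood at 6.89, 1.10, 2.68 and 3.41 CPM in WT proximal libraries 1 to 4 and at 5.69, 37.8, 9.16 and 9.07 CPM in HSCR proximal libraries 1 to 4. In HSCR 3 libraries lay above all WT libraries, and HSCR library 1 lay below WT library 1. The log2 fold change was 2.12 (SE 0.77, unadjusted p = 0.0222, adjusted p = 0.747 by edgeR), and the exact 2-sided permutation test gave p = 0.0571, where 4 against 4 cannot go below 0.0286. Distal levels were 21.2, 1.91, 2.11 and 4.01 CPM in WT and 4.41, 16.4, 22.1 and 3.56 CPM in HSCR. These overlapped fully, with a log2 fold change of 0.62 (0.92).

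Lamb3, the beta chain of the same trimer (ENSMUSG00000026639, mm39 chromosome 1, 192890007 to 193026186, plus strand), had the widest ratio of highest to lowest library among the genes with a count in every library. Its levels were 17.1, 3.23, 0.670 and 1.56 CPM in WT proximal and 9.57, 143, 32.8 and 4.94 CPM in HSCR proximal libraries. In the distal colon they were 10.3, 1.01, 5.19 and 1.68 CPM in WT and 0.279, 9.55, 114 and 2.01 CPM in HSCR. One library in each HSCR group stood far above the rest, library 2 in the proximal and library 3 in the distal colon. The highest level was 514 times the lowest. Its log2 fold changes were 3.07 (SE 1.30, unadjusted p = 0.0429, adjusted p = 0.747 by edgeR) in the proximal and 2.67 (1.52, adjusted p = 1.00) in the distal colon.

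Itgb6, the beta chain that epithelia use to bind and activate latent TGF-beta (ENSMUSG00000026971, mm39 chromosome 2, 60428636 to 60552987, minus strand), was lower than both. Proximal levels were 1.72, 0, 1.04 and 0 CPM in WT and 2.32, 19.6, 2.91 and 0.424 CPM in HSCR. The 2 WT libraries without a count had limits of 0.110 and 0.130 CPM, the worth of 3 counts. Distal levels were 4.09, 0.618, 1.16 and 1.00 CPM in WT and 0.0838, 3.28, 6.80 and 0 CPM in HSCR. The groups overlapped in both segments, with log2 fold changes of 3.21 (SE 1.69) and 0.49 (1.51). Itgb4, the receptor beta chain of the hemidesmosome, had mean levels of 20.1 ± 5.45 and 46.8 ± 28.8 CPM in WT and HSCR proximal colon (SD, n = 4 each). The log2 fold change was 1.21 (unadjusted p = 0.0274, adjusted p = 0.747 by edgeR, SE 0.46), and distal means were 15.5 ± 8.96 and 34.7 ± 42.6 CPM. Part of its exons, 14.9% of their bases, overlap Galk1 on the opposite strand.

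**Figure D3:**
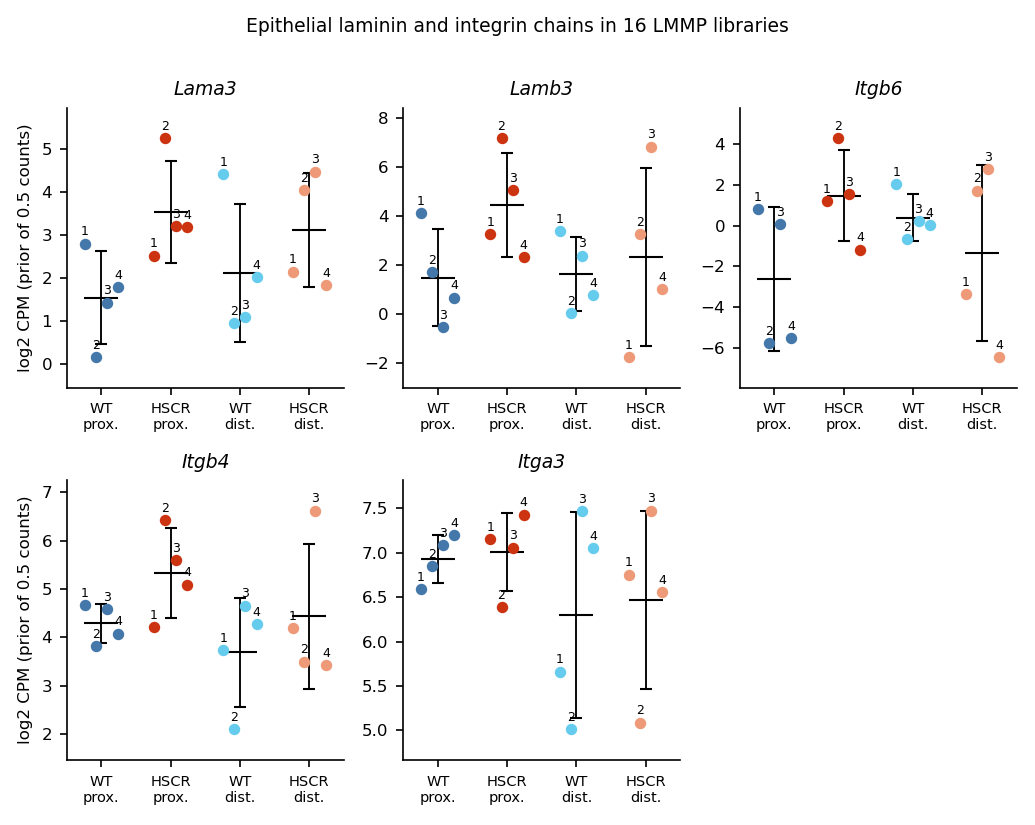
Log2 CPM (prior of 0.5 counts) of 5 epithelial chains by group. Each point is 1 library with its number, and the bar and whiskers are the mean ± SD of 4 libraries. HSCR proximal library 2 and HSCR distal library 3 are highest in their groups for Lama3, Lamb3, Itgb6 and Itgb4, while for Itga3 HSCR proximal library 2 is the lowest of its group.

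The epithelial markers were also higher on average in the HSCR proximal libraries, and all of these proximal differences were smaller without 1 library. Over 14 epithelial markers the mean log2 CPM was 6.72, 0.93, -1.22 and -1.74 in WT proximal and 4.96, 9.35, 7.12 and 3.14 in HSCR proximal libraries. The summed level ran from 50.5 to 3737 CPM in WT and from 252 to 17281 CPM in HSCR, and 6 of the 14 markers, Krt20, Vil1, Muc2, Car1, Slc26a3 and Phgr1, had no count in at least 1 of the 16 libraries. The list differed by 4.97 between the proximal groups (exact 2-sided permutation test, p = 0.0857). Without HSCR proximal library 2 the log2 fold changes were 1.15 for Lama3, 1.42 for Lamb3, 1.42 for Itgb6 and 0.72 for Itgb4. The part of attached mucosa in these differences was not tested. Within replicates 1 and 2, whose library names share 1 form, and within replicates 3 and 4, whose names have 2 other forms, the mean log2 CPM of Lama3 differed by 2.40 and 1.59, that of Lamb3 by 2.31 and 3.62, that of Itgb6 by 5.24 and 2.91 and that of Itgb4 by 1.07 and 1.02.

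Itga3 did not follow Lama3 and Lamb3. Itga3, the laminin receptor alpha chain of epithelia and the highest of the 7 by FPKM (ENSMUSG00000001507, mm39 chromosome 11, 94935300 to 94967627, minus strand), stood at 96.1, 116, 136 and 147 CPM in WT proximal and at 143, 83.9, 133 and 172 CPM in HSCR proximal libraries. Its distal levels were 50.6, 32.2, 178 and 133 CPM in WT and 108, 34.0, 178 and 94.0 CPM in HSCR. The library richest in epithelial markers was the lowest of its group, and the log2 fold changes were 0.09 (SE 0.28) and 0.06 (0.60). The log2 ratio of Lamb3 to Lama3 within a library ran from -3.92 to 2.36, so these chains of 1 trimer were not in a fixed ratio across libraries. Itga2, a collagen receptor chain, had log2 fold changes of -0.25 (0.52) and -0.66 (0.75).

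To show which tissue each chain kept company with, the 24 pairs of libraries inside the 4 groups were ordered by each gene and by each marker list, and the pairs ordered alike were counted. Libraries were set only against others of their own labelled group. Pairs with the library labelled HSCR proximal 1, HSCR distal 1 or HSCR distal 4 may hold a segment difference, since these went against their labels by Hoxd13. The count is a description, since the pairs share libraries. Lamb3 and Itgb6 were ordered like the epithelial markers in 21 of 24 pairs each, Lama3 in 18 and Itgb4 in 17. Itga3 was ordered like them in 7 and like the smooth muscle markers in 22. Of the 7 epithelial chains, 5 were closer to the epithelial than to the smooth muscle list. All 15 muscle and mesenchyme chains were closer to the smooth muscle list than to the epithelial list, with a median of 20 pairs against 6. Their medians for the endothelial, mesothelial and fibroblast markers were 18, 18 and 17, and Lamb1, Lama2, Lama4 and Itga11 were ordered like the endothelial markers more often than like the smooth muscle ones. Of the 10 leukocyte and platelet chains, 8 were closer to the epithelial than to the smooth muscle list. Their medians were 16.5 pairs for the leukocyte, 16 for the epithelial and 10.5 for the smooth muscle markers. The 8 include Itgad, which had counts in 1 library only, so its order rests mostly on library depth and the prior.

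**Figure D4:**
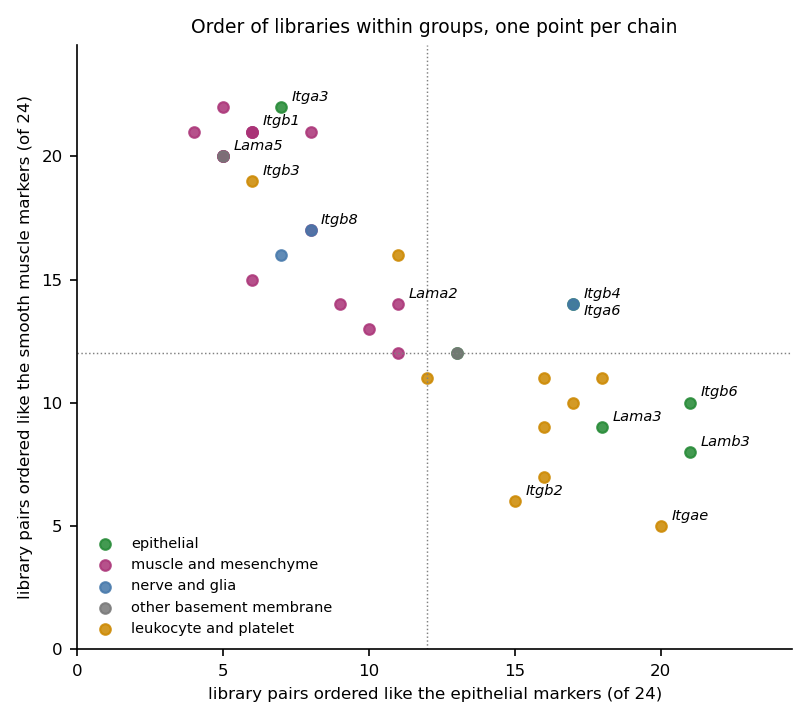
For each of 36 chains, the number of 24 library pairs within groups that it orders like the epithelial markers (x) and like the smooth muscle markers (y), with points at the same place drawn over each other. Lamb3, Itgb6 and Lama3 lie at the lower right, while Itga3 and Itgb3 lie at the upper left among the muscle chains.

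The 250 bases before the transcript start are shown for 3 genes, chosen after their order was seen. Itga3 was ordered with the muscle chain Lamc1 and Itgb6 was not. They were read from GRCm39, the build of the files, at the canonical start of GENCODE release M39, 5′ to 3′ on the strand of the gene, with GC boxes (GGGCGG, either strand) in capitals. They lie at chr1:153208775-153209024 for Lamc1, chr11:94967645-94967894 for Itga3 and chr2:60504056-60504305 for Itgb6, all on the minus strand.
Lamc1: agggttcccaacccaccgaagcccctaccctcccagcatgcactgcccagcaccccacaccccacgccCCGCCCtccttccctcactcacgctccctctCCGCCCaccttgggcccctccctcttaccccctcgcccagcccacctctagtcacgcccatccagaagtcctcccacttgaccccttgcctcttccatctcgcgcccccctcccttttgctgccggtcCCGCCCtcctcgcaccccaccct
Itga3: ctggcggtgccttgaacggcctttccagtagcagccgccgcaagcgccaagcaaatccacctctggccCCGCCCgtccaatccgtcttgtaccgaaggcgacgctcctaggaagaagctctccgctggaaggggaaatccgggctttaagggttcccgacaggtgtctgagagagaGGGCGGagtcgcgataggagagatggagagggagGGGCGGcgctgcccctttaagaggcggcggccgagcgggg
Itgb6: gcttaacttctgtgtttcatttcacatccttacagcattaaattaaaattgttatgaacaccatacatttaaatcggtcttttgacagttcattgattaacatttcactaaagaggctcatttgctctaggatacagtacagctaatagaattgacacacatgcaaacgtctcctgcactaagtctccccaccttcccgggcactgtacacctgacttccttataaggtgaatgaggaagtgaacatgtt
Lamc1 and Itga3 held 3 GC boxes each, and Itgb6 held 0. The GC content was 68.8% in Lamc1, 64.8% in Itga3 and 38.4% in Itgb6. At least 1 GC box was found in 36.3% of 21770 protein-coding promoters of this length, in 8 of 15 muscle and mesenchyme chains (53.3%), in 1 of 7 epithelial chains (Itga3) in 2 of 10 leukocyte and platelet chains, in 3 of 3 nerve and glia chains and in 2 of 2 other basement membrane chains. The other motifs searched on both strands were AP-1 (TGANTCA, in 6.17% of all promoters and 8.11% of the 37), that of GATA factors (AGATAA, 9.60% and 10.8%), the TATA box (TATAAA, 11.9% and 8.11%), that of CDX factors (TTTATG, 10.01% and 5.41%) and the CArG box (1.40% and 5.41%, in Itgb6 and Lama2). Other chains did not follow the 3 shown. Lamb2, ordered like the smooth muscle markers in 20 of 24 pairs, held 0 GC boxes. Itga6, ordered like the epithelial markers in 17 of 24, held 3. A match is a description of these letters only, and a tie between them and the order of the libraries was not tested.

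The chains of muscle and mesenchyme differed between libraries far more than between genotypes. Itgb1 (ENSMUSG00000025809) stood at 1208, 935, 1724 and 1762 CPM in WT proximal and at 1988, 222, 1504 and 2325 CPM in HSCR proximal libraries. Its distal levels were 600.1, 386, 1781 and 2328 CPM in WT and 1604, 318, 3056 and 3014 CPM in HSCR. Library 2 was the lowest of every group, and both genotype differences were within the spread, with log2 fold changes of 0.08 (SE 0.62) and 0.65 (0.74). In the proximal colon 12 of the 15 chains were above 0 and in the distal colon 14 of 15, with medians of 0.31 and 0.38 (all genes 0.04 in each), and 0 had an unadjusted p under 0.05 in either (edgeR, where 6.62% and 2.64% of all genes did). The laminins among them had proximal log2 fold changes of 0.65 for Lamb1, 0.54 for Lamc1, 0.42 for Lama4, 0.33 for Lama2 and 0.33 for Lamb2. HSCR proximal library 2 was the lowest of the 16 for 11 of the 15. Itga5, chosen after its values were seen, was at 19.3 CPM there and at 751 to 985 CPM in the other 3 libraries of its group. Itga7, the muscle laminin receptor chain, had log2 fold changes of -0.05 (0.59) and 0.29 (0.68).

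Itgb8 was the one chain of 36 whose proximal genotype groups did not overlap, a share near that of all genes. It encodes the beta chain of a receptor that activates TGF-beta on glia, neural progenitors and other cells. WT proximal libraries held 6.74, 12, 10.6 and 9.42 CPM and HSCR proximal libraries held 3.55, 0.622, 3.14 and 6.39 CPM (ENSMUSG00000025321, mm39 chromosome 12, 119121757 to 119202537, minus strand). Every HSCR value was lower than every WT value, which was so for 2.83% of all genes. No chain had every HSCR value higher, which was so for 1.95% of all genes, and in the distal colon 0 chains were apart in either direction (0.674% of all genes higher and 1.15% lower). Its log2 fold change was -1.51 (SE 0.63, unadjusted p = 0.0402, adjusted p = 0.747 by edgeR), and the exact 2-sided permutation p was 0.0286, the smallest it can be. The difference was -2.58 within replicates 1 and 2 and -1.16 within replicates 3 and 4, and was -1.17 without HSCR proximal library 2. Distal levels were 4.15, 4.94, 10.8 and 8.28 CPM in WT and 2.57, 7.18, 4.66 and 6.87 CPM in HSCR, which overlapped, with a log2 fold change of -0.39 (0.49). Whether the segments differ in this was tested by the interaction, which did not pass (1.13, SE 0.79, adjusted p = 1.00 by edgeR).

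Glial markers were lower in the same proximal comparison. The mean log2 CPM of 8 glial markers, among them Sox10 and S100b, was 5.69, 5.43, 5.16 and 5.20 in WT proximal and 3.09, 2.57, 4.56 and 3.89 in HSCR proximal libraries, a difference of -1.84 (exact permutation p = 0.0286). Over 12 neuronal markers it was -2.57 (exact permutation p = 0.171), with Chat at 0 in 7 and Elavl3 at 0 in 2 of the 16 libraries. Summed glial markers ran from 375 to 799 CPM in WT and from 107 to 401 CPM in HSCR. In the distal colon, where Itgb8 differed by -0.39, the glial markers differed by -1.65 (exact permutation p = 0.0857) and the neuronal by -3.28 (exact permutation p = 0.143). Within groups Itgb8 was ordered like the glial markers in 13 of 24 pairs, like the neuronal in 15, like the smooth muscle in 17 and like the endothelial in 19. The part of nerve and glia content in the Itgb8 difference was not tested.

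Lamc3, a gamma chain of nerve and vessel basement membranes, averaged 6.59 ± 7.18, 4.10 ± 2.85, 3.73 ± 4.44 and 1.11 ± 0.559 CPM in WT proximal, HSCR proximal, WT distal and HSCR distal colon (SD, n = 4 each). It had no count in WT proximal library 1 and WT distal libraries 1 and 2, with limits of 0.215, 0.0966 and 0.0842 CPM. From proximal to distal HSCR colon its log2 difference was -1.89 (SE 0.74, unadjusted p = 0.0313, adjusted p = 1.00 by edgeR). Itga6, the alpha chain that pairs with Itgb4 in epithelia and with Itgb1 elsewhere, stood at 45.3, 25.5, 47.8 and 30.0 CPM in WT proximal and at 25.7, 77.9, 48.0 and 34.8 CPM in HSCR proximal libraries (ENSMUSG00000027111). Its distal levels were 29.2, 10.6, 40.1 and 31.0 CPM in WT and 26.8, 28.7, 73.4 and 18.1 CPM in HSCR. Its highest libraries in the HSCR groups were those of Lamb3, and it was ordered like the epithelial markers in 17 of 24 pairs and like the glial in 12, although it was placed with nerve and glia. The genotype differences were 0.32 (0.39) and 0.38 (0.50).

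Lama1, the alpha chain of the first embryonic basement membrane, gave the smallest unadjusted p of the 37 genes in any comparison. It stood at 9.68, 13.6, 7.34 and 4.41 CPM in WT proximal libraries and at 12.2, 25.8, 19.5 and 51.4 CPM in WT distal libraries (ENSMUSG00000032796, mm39 chromosome 17, 68004254 to 68129642, plus strand). One distal library lay below the highest proximal one. The log2 difference of distal against proximal was 1.61 (SE 0.49, unadjusted p = 0.0088, adjusted p = 0.906 by edgeR, exact permutation p = 0.0571), 0.63 within replicates 1 and 2 and 2.47 within replicates 3 and 4 (where the name forms differ between the segments), and 1.16 without WT distal library 4. HSCR libraries held 22.7, 1.56, 21.5 and 5.75 CPM in the proximal and 9.25, 9.41, 18.7 and 5.11 CPM in the distal colon, a log2 difference of -0.31 (0.76). In the distal colon HSCR differed from WT by -1.36 (log2, SE 0.51, unadjusted p = 0.0255, adjusted p = 1.00 by edgeR) and by -0.90 without WT distal library 4. The WT distal libraries enter both of these comparisons. The difference of differences was -1.87 (SE 0.95, unadjusted p = 0.0677, adjusted p = 1.00 by edgeR).

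**Figure D5:**
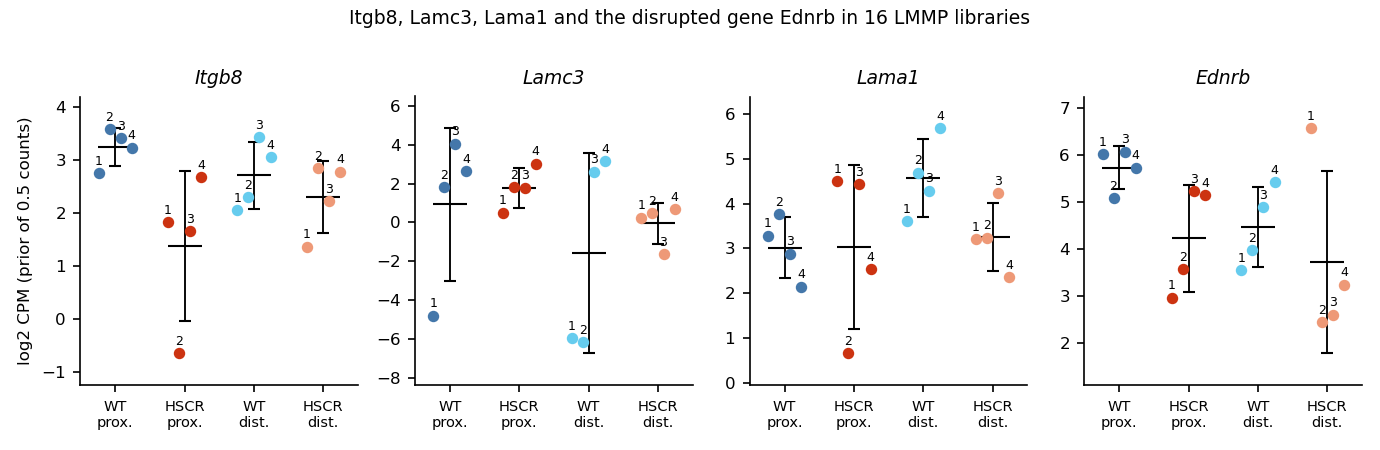
Log2 CPM (prior of 0.5 counts) of Itgb8, Lamc3, Lama1 and Ednrb by group, each point 1 library with its number, with the mean ± SD of 4. All 4 HSCR proximal points of Itgb8 lie below all 4 WT proximal points, and WT distal library 4 is the highest for Lama1.

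Lama5, the alpha chain of most mature basement membranes (ENSMUSG00000015647, mm39 chromosome 2, 179818166 to 179867652, minus strand), stood at 121, 213, 255 and 267 CPM in WT proximal and at 623, 15.8, 165 and 454 CPM in HSCR proximal libraries. Distal levels were 49.4, 36.5, 238 and 398 CPM in WT and 283, 45.2, 359 and 446 CPM in HSCR. It was ordered like the smooth muscle markers in 20 of 24 pairs and like the epithelial in 5. The genotype differences, 0.54 (SE 0.83) and 0.67 (0.83), were within the spread.

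The leukocyte and platelet chains were low apart from Itgb3. Itgb3, the beta chain shared by the platelet fibrinogen receptor and the vitronectin receptor, averaged 19.2 ± 9.47 FPKM over 16 libraries, while the other 9 lay between 0.00148 and 1.42 FPKM. Its levels were 111, 139, 127 and 157 CPM in WT proximal, 207, 8.05, 89.4 and 181 CPM in HSCR proximal, 50.2, 51.3, 145 and 111 CPM in WT distal and 131, 28.3, 139 and 196 CPM in HSCR distal libraries (ENSMUSG00000020689, mm39 chromosome 11, 104498826 to 104561302, plus strand). The library poorest in smooth muscle markers was the lowest. It was ordered like the smooth muscle and the endothelial markers in 19 of 24 pairs each, like the mesothelial in 17 and like the leukocyte markers in 3. Of 6 platelet markers, 4 (Gp9, Gp1bb, Gp6 and Treml1) had no count in over 8 of the 16 libraries. The summed level of all 6 was 1.96 to 31.2 CPM, most of it from Pf4, which was at 1.92 to 30.9 CPM. The genotype differences of Itgb3 were -0.16 (SE 0.72) and 0.47 (0.56).

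Itgb2, the common leukocyte beta chain, and Itgam, its partner on myeloid cells, were ordered like the leukocyte markers in 20 and 19 of 24 pairs. WT distal library 1 held the highest level of the 16 libraries for 4 of the 10 chains of this group and had the highest leukocyte marker mean, 4.42 log2 CPM against 1.32 to 3.63 in the others. Cd3e was at 0 in 8 and Cd79a in 4 of the 16 libraries. None of the 9 leukocyte and platelet chains tested in the proximal and of the 8 tested in the distal colon had an unadjusted p under 0.05 (edgeR), and their medians were -0.16 and -0.02. Itgae, the alpha chain of intraepithelial lymphocytes, was ordered like the epithelial markers in 20 of 24 pairs. Exons of Itgam overlap another gene model on the same strand over 67.4% of their bases,, so its counts are uncertain.

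Between the segments the same question was asked of each genotype. Of 36 genes tested in WT, 0 were called by edgeR (0.0181% of all genes were) and 0 by DESeq2 (0.29%), 1 was higher distally at an unadjusted p under 0.05 (Lama1, where 3.17% of all genes were) and 0 were lower (2.06%). In all 5.23% of genes had such a p. Of the 36, 14 were above 0 (51.7% of all genes), and 0 had groups that did not overlap (2.69% of all genes higher and 1.58% lower). The median log2 difference was -0.23 (all genes 0.03), and it was 0.03 without WT distal library 2 and 0.18 without WT distal libraries 1 and 2, an alternative chosen after seeing the data. In HSCR, 0 of 36 were called by edgeR (0% of all genes) and 0 by DESeq2 (0.0293%), 0 were higher and 1 was lower (Lamc3) at an unadjusted p under 0.05, where 0.708% and 0.778% of all genes were (1.49% together). Of the 36, 11 were above 0 (47.1% of all genes), and 0 had groups that did not overlap (0.708% of all genes higher and 0.562% lower). The median was -0.20 against -0.04 over all genes, 0.06 without HSCR distal library 2, 0.01 without HSCR proximal library 1, -0.06 without library 1 of both HSCR segments and, chosen after seeing the data, -0.26 without HSCR proximal libraries 1 and 2 and HSCR distal library 1. The sign of both medians therefore rested on single libraries. RUVr called 6 of 36 in WT (Lama1, Itgb6 and Itgal higher, Itgae, Itgb7 and Lamc3 lower, with 15.1% of all genes, Itgae having turned from 0.20 to -2.97) and 2 in HSCR (Itgax and Lamc3 lower, with 3.51%).

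Another 37 genes that work with these chains were read in the same fits, namely 16 ligands and matrix partners, 3 other laminin receptors and 18 cytoplasmic linkers and signalling genes. No such gene was called in any of the 5 comparisons (edgeR's quasi-likelihood test, 0 genes). Results of the alternative settings are not given for these genes. In the proximal colon 27 of 37 were above 0 and 10 below (53.2% of all genes above 0), with a median of 0.14, and 1 had an unadjusted p under 0.05 (6.62% of all genes). This was Vcam1, the ligand of the Itga4 receptors, with means of 27.2 ± 8.17 and 9.62 ± 3.20 CPM in WT and HSCR (SD, n = 4 each). It differed by -1.51 (log2, SE 0.35, unadjusted p = 0.0021, adjusted p = 0.601 by edgeR). Its groups did not overlap, while Itga4 itself differed by -0.16. The study, whose Methods name edgeR with RUVr, listed Vcam1 among the genes lowered in the proximal HSCR colon at an adjusted p under 0.05. In the distal colon Vcam1 averaged 16.8 ± 6.73 and 8.84 ± 3.15 CPM (-0.92, adjusted p = 1.00 by edgeR). The other proximal genes with the smallest p were Nid2, a nidogen that links laminin to collagen IV networks (1.24), Vtn, the vitronectin ligand of Itgav and Itgb3 (-1.44), and Icam1, the ligand of Itgal and Itgb2 (1.69). Each of these had an unadjusted p above 0.1.

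Distally the smallest p values were those of Tln2, a talin that ties beta tails to actin (-0.81, unadjusted p = 0.0309, adjusted p = 1.00 by edgeR), Vcam1, the linker Parva (-0.39) and Npnt, the nephronectin ligand of Itga8 (1.49). Of 36 related genes tested there, 21 were above 0 and 15 below (53.9% of all genes above 0). Between the WT segments, Npnt was lower distally (67.5 ± 20.3 against 29.6 ± 22.1 CPM, log2 difference -1.22) and Parva (0.57) and Src (0.46) were higher, each at an unadjusted p of 0.0488 to 0.0494 and an adjusted p of 0.906 (edgeR). Nid2 differed by 0.91. Of the 16 ligands and matrix partners, 3 were above 0 and 13 below in that comparison, with a median of -0.60, where 51.7% of all genes were above 0. The 18 linkers and signalling genes went the other way, with 15 above 0, 3 below and a median of 0.30. Over all 37 related genes 20 were above 0 and 17 below, with a median of 0.09.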

How the data were processed

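Bulk RNA of 16 LMMP libraries, 4 in each of 4 groups of genotype and colon segment, was sequenced. Per the submitters' notes, the authors aligned reads to mm39 with HISAT2 2.2.1 and counted them on genes with featureCounts 2.0.6, and the deposited table holds raw counts per gene. The authors also deposited FPKM, which were found to be counts per kb of gene length times 1 constant per library. The strand setting of the counting is not given in the sources used here. A further 20 deposited columns hold the authors' own comparisons (fold changes and p-values) and were not used.

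From the counts, each comparison of 4 against 4 libraries was fitted with edgeR 4.0.16 in R 4.3.3 (filterByExpr, TMM factors, the quasi-likelihood test, Benjamini-Hochberg adjustment over all genes tested), and a call needed an adjusted p under 0.05 and a log2 fold change beyond 1. The difference between the segments' genotype differences was fitted on all 16 libraries. CPM used TMM factors over the 16 libraries, and log2 CPM a prior of 0.5 counts. Single values were also compared by exact 2-sided permutation tests with numpy 2.4.6. The fits were tested on simulated counts. A count of 0 was given a limit of 3 counts, which covers counting error only.

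Alternatives were DESeq2 1.42.0, RUVr with 4 factors from deviance residuals and a likelihood ratio test, RLE size factors, no filter, 1 fit of all libraries, a term for the replicate number, a term for the library names, other thresholds, and libraries left out. The libraries carry 1 batch label. The names of replicates 1 and 2 share 1 form, while those of replicates 3 and 4 have 2 other forms, both in the proximal and 1 of them in the distal colon. The term used sets replicates 1 and 2 against 3 and 4.

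Given with a value in every library were Ednrb, Lama3, Lamb3, Itgb6, chains with an unadjusted p under 0.01 in any of the 5 comparisons and the highest chain by FPKM of each group. Group means or fold changes were given for chains with an unadjusted p under 0.05. Of the related genes, the 4 with the smallest p of each genotype comparison and of the WT segment comparison were named. Itgb8, with a value in every library, and the other chains named with values (Itga2, Itga10, Itgal, Itgax, Itgb7, Itga5, Itga7, Lamc1 and the other muscle laminins, Itgae, Itgam, Itgb2 and Itga4) were chosen after their values were seen. Counts and medians cover all 37 genes, but 1 chain is not reported here by itself. The genes, their groups and the marker lists were chosen with earlier results of these data known.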

Additional observations from a re-analysis of the deposited data

Results flagged for a closer look

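In 12 of 145 groups of 4 libraries, the highest or lowest log2 CPM of a chain lay so far from the other 3 that the ratio of its gap to the range was above Dixon's 95% critical value for 4 samples. Chance flags about 1 in 20 such groups, here 7.25, and chains that share a library are not independent. Of the 12, 10 were muscle and mesenchyme chains. HSCR proximal library 2 was the lowest for Itga5 (ratio 0.931, 19.3 CPM against 751 to 985 CPM), Lama4 (0.925, 24.8 CPM against 221 to 263 CPM), Itga9 (0.880, 15.6 CPM against 241 to 350.3 CPM), Itga8 (0.875, 4.22 CPM against 49.4 to 70.3 CPM), Itga1 (0.842, 23.6 CPM against 397 to 674 CPM) and Lamb1 (0.841, 54.2 CPM against 239 to 316 CPM). HSCR distal library 2 was the lowest for Lamc1 (0.940, 127 CPM against 675 to 750.4 CPM), Itga9 (0.905, 51.1 CPM against 265 to 316 CPM) and Itgav (0.878, 35.7 CPM against 128 to 153 CPM).

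HSCR distal library 2 was the highest for Itga2b, the platelet alpha chain (0.893, 13.7 CPM against 4.21 to 4.78 CPM). WT proximal library 4 was the lowest for Itga11, a collagen receptor chain (0.848, 0.562 CPM against 3.44 to 4.77 CPM). Itgad was counted in HSCR proximal library 3 only (0.849, 0.114 CPM), and its ratio rests on the prior of 0.5 counts.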

How the results depend on the processing

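The number of chains called was 0 in all 5 comparisons under every alternative run other than RUVr. Its likelihood ratio test called 6 in the proximal colon, 2 in the distal colon, 6 between the WT segments and 2 between the HSCR segments. It called 19.2%, 8.65%, 15.1% and 3.51% of all genes there. With a looser fold limit of 1.5, chosen after seeing the data, it called 7, 2, 7 and 2 chains, and the shares of all genes are then at least as large. Under RUVr the proximal log2 fold changes were 1.81 for Lama3 (adjusted p = 4.98e-06 by edgeR), 2.93 for Lamb3 (1.26e-07), 3.60 for Itgb6 (0.000121) and -1.78 for Itgb8 (1.28e-05). The segment differences were 1.62 for Lama1 in WT (5.65e-05) and -1.78 for Lamc3 in HSCR (0.0198). These differences and that of Itgb4 in the proximal colon kept their sign under every alternative run, as did Lama1 in the distal colon. Itgb6 and Itgb7 between the WT segments and Itgax between the HSCR segments, also called by RUVr, kept theirs as well. The RUVr calls given next did not. Itga10 in the proximal colon was at -1.18, at 1.87 under RUVr and at 1.37 with the replicate block. Lamc3 in the distal colon was at -1.68, at 3.80 under RUVr, at 1.06 with the replicate block and at 1.17 with the names as a term. Itgae between the WT segments was at 0.20, and at -2.97, -1.27 and -1.90 under these 3 settings. Itgal in the proximal colon was at 0.33 and at -0.13 without HSCR proximal libraries 1 and 2. Without WT distal libraries 1 and 2, Itgal, Itgae and Lamc3 between the WT segments were at -0.85, -7.54 and 0.16. With 1 library left out, Itga10 in the proximal colon ranged from -1.59 to 2.00 (above 0 without WT proximal library 2), Itgal from -0.086 to 1.86 there and from -0.15 to 1.85 between the WT segments, Itgae from -0.12 to 2.23 in the distal colon and from -1.76 to 0.75 between the WT segments, and Lamc3 from -1.69 to 0.15 between the WT segments. The cause of the RUVr calls was not tested.

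With each library left out in turn, proximal log2 fold changes ranged from 1.15 to 2.69 for Lama3, 1.42 to 4.72 for Lamb3, 1.42 to 4.15 for Itgb6 and 0.72 to 1.49 for Itgb4, lowest in each case without HSCR proximal library 2 and, for Lamb3, highest without WT proximal library 1, and from -2.02 to -1.17 for Itgb8. Lama1 ranged from 1.16 to 1.89 between the WT segments and from -1.72 to -0.90 in the distal colon, and Lamc3 from -2.18 to -1.31 between the HSCR segments. The median over the chains ranged from 0.04 to 0.41 in the proximal and from 0.10 to 0.52 in the distal colon. It changed sign between the WT segments (-0.43 to 0.03, positive without WT distal library 2), between the HSCR segments (-0.33 to 0.06, positive without HSCR distal library 2 and, at 0.01, without HSCR proximal library 1) and in the difference of differences (-0.02 with all libraries, -0.30 without WT distal library 2, 0.26 without HSCR distal library 2, 0.12 with the names as a term, 0.28 under RUVr).

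Same-numbered libraries did not deviate together in every pair (correlations of -0.13 to 0.28 in the proximal and -0.23 to 0.47 in the distal colon). Between the segments they were all above 0, at 0.09 to 0.49 in WT and 0.01 to 0.41 in HSCR, but not all above 0.1, and the sources do not say whether equal numbers share a mouse, so the numbers were not taken as pairs. With the replicate number as a block, 0 chains were called, the medians were 0.12, 0.39, -0.35, -0.05 and 0.21 in the 5 comparisons, and the log2 fold changes were 1.83 for Lama3, 3.14 for Lamb3, 1.03 for Itgb4, 3.21 for Itgb6, -1.79 for Itgb8, -1.26 and 1.52 for Lama1 and -1.85 for Lamc3. Without HSCR proximal libraries 1 and 2, chosen after seeing the data, Lama3 was at 1.35, Lamb3 at 1.66, Itgb4 at 1.02, Itgb6 at 1.23 and Itgb8 at -1.02. The spread between libraries limits these comparisons, with a biological coefficient of variation of up to 0.740.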
